A study of Mus musculus with 6 samples.

Results

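Autophagy, mitophagy and lysosome genes were followed in gastrocnemius muscle of mice carrying a PGC-1alpha3 transgene. PGC-1alpha3 is one of the proteins made from Ppargc1a, a gene whose products switch on transcription programmes in muscle. The group was defined by 39 gene symbols with known roles in this pathway, and each symbol matched exactly 1 row among the 51911 genes of the deposited count table. Bulk RNA sequencing covered 6 male mouse libraries in 2 groups. The HSA-PGC-1a3 transgenic group (genotype alpha3_tg) had 3 libraries, and its transgene is named for the human skeletal actin promoter, which is active in skeletal muscle fibres. The wild-type group had 3 libraries. The labels give no age, strain or treatment, and do not say whether the transgenic libraries come from 1 founder line or whether each library is a separate animal. The p-values below therefore measure the spread between these libraries, which may be technical.

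Macroautophagy encloses cytoplasm in a double membrane that then fuses with lysosomes. The ULK kinase complex starts the process, a class III phosphatidylinositol 3-kinase complex marks the membrane, and a ubiquitin-like conjugation system attaches ATG8 proteins (the LC3 and GABARAP families) to it. Cargo receptors such as p62 (Sqstm1), NBR1 and optineurin bind ubiquitinated cargo and ATG8 proteins, while PINK1, BNIP3, NIX and FUNDC1 direct mitochondria to the same route. TFEB, TFE3 and MITF are related transcription factors that activate lysosomal and autophagy genes through E-boxes. In skeletal muscle this pathway is known to be needed for turnover of mitochondria and glycogen, and loss of the lysosomal glucosidase encoded by Gaa causes Pompe disease.

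Total counts ran from 25532146 to 40846872 per library. Ppargc1a, the gene of the transgene, had 73513 to 120862 counts in transgenic muscle, against 1179 to 1809 counts in wild-type muscle, so each label matched its library. All 10 muscle fibre markers (such as Acta1 and Ckm) were abundant, and their summed level ran from 80900 to 87200 CPM in the transgenic group and from 175000 to 186000 CPM in the wild-type group. All 10 were called lower in the transgenic muscle with TMM scaling and 7 with library totals alone, against 25.2% and 8.73% of all tested genes. The 10 log2 fold changes with TMM scaling ran from -1.603 to -0.344. In bulk tissue, fewer cells of a type, less RNA per cell and lower expression of the marker genes alone cannot be told apart. CPM here are counts scaled to a common library size with TMM factors, which set the typical gene level between libraries. The median log2 fold change over tested genes was -0.016 on this scale and 0.38 when only library totals were used, a shift of 0.396, so calls are given under both where they differ.

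All 39 members passed the filter on low counts, with 250 to 39481 counts per library. In the transgenic muscle 13 fell and 9 rose at an adjusted p below 0.05 (edgeR quasi-likelihood test, adjusted over 16593 genes), and 17 passed in neither direction. Among all tested genes 25.2% were called lower, 25.5% higher and 50.7% in either direction, so the members' overall share (56.4%) lay near the background. The members' median log2 fold change was -0.07, against -0.016 for all tested genes. For 25 of the 39 members the CPM ranges of the genotypes were separate, as they were for 59.6% of all tested genes. Of the members, 6 changed at least 1.5-fold, and all of these fell: Optn, Ulk2, Sqstm1, Bnip3, Gaa and Pink1. No member rose by that much, while 12.7% of all tested genes did and 11.3% fell by that much. The same 6 members were the ones called lower with library totals alone, where 25 members were called higher, against 8.73% of all genes lower and 52.3% higher. All 9 members that rose under TMM scaling (Atg13, Atg14, Wipi2, Atg16l1, Map1lc3a, Lamp2, Ctsl, Ctsb and Mcoln1) were among those 25. Library totals alone lift the median gene by 0.396, so these rises could hardly fail there and gain no support from it. Of the members, 14 share exonic bases with another annotated gene. A fragment in such a stretch counts towards both genes, so part of either gene's count may belong to the other, and several such overlaps are given beside the member.

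**Figure D1:**
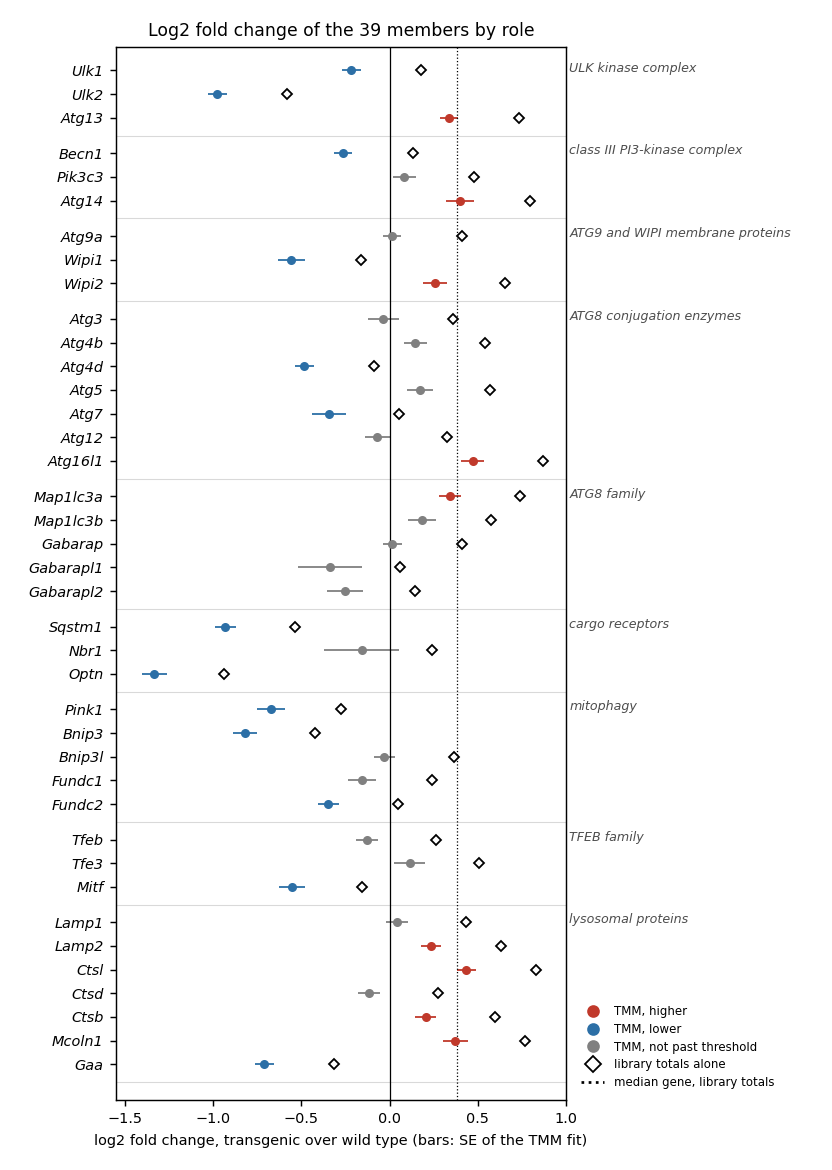
Log2 fold change of each member, transgenic over wild type, ordered by role, where filled points with SE bars are the TMM fit (red higher, blue lower, grey not past the threshold), open diamonds use library totals alone, and the dotted line is the median of all tested genes under library totals (0.38). Optn lies farthest to the left (-1.33) and Atg16l1 farthest to the right (0.47) among the filled points.

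The cargo receptor genes held the largest change among the members. Optn, which encodes optineurin (chromosome 2, 5020642 to 5064051, GRCm38), stood at 52.5, 49.1 and 44.1 CPM in transgenic muscle and at 117, 126 and 125 CPM in wild-type muscle. Every transgenic library lay below all wild-type libraries. The log2 fold change, transgenic over wild type, was -1.33 (standard error, SE, 0.07, edgeR adjusted p = 1.41e-07), a 2.52-fold lower level, and -0.94 with library totals alone. Sqstm1, which encodes p62 (chromosome 11, 50199366 to 50210827), stood at 305, 295 and 289 CPM in transgenic muscle and at 552, 597 and 549 CPM in wild-type muscle. The groups were far apart compared with the spread within each, with a log2 fold change of -0.93 (SE 0.06, edgeR adjusted p = 5.56e-07), or -0.54 with library totals alone. Sqstm1 shares 580 exonic bases with Mrnip on the other strand, and counting ignored strand, but the row of Mrnip held 914 counts over all libraries against 74703 for Sqstm1.

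Nbr1, the receptor gene most closely related in function to Sqstm1, behaved differently between libraries of 1 genotype. It stood at 86.3, 88.8 and 142 CPM in transgenic muscle and at 116, 118 and 120 CPM in wild-type muscle. Transgenic replicate 3 lay above all wild-type libraries and the other transgenic libraries lay below them. The log2 fold change was -0.16 (SE 0.21, edgeR adjusted p = 0.58), and -0.42 (adjusted p = 2.25e-04) without transgenic replicate 3.

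Of the 5 genes grouped under mitophagy 3 were lower and 0 higher with TMM scaling, and 2 were lower and 2 higher with library totals alone. Pink1 encodes the kinase that accumulates on damaged mitochondria (chromosome 4, 138313409 to 138326307). It stood at 706, 665 and 604 CPM in transgenic muscle and at 970, 1140 and 1040 CPM in wild-type muscle. All transgenic libraries were lower, with a log2 fold change of -0.67 (SE 0.08, edgeR adjusted p = 4.19e-05), and -0.28 with library totals alone. Bnip3, a receptor in the outer mitochondrial membrane (chromosome 7, 138890836 to 138909519), stood at 50.3, 51.9 and 48.1 CPM against 92.2, 92.9 and 80.3 CPM. It fell by 0.82 on the log2 scale (SE 0.07, edgeR adjusted p = 2.99e-06), a 1.77-fold lower level, and was at -0.43 with library totals alone. Pink1 shares 110 exonic bases with the microRNA gene Gm27646 on its own strand, whose row held 12840 counts against 149248. Bnip3 shares 504 exonic bases with the antisense gene Gm45507, whose row held 6568 counts against 12042 for Bnip3, so part of its count may belong to that gene.

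The paralogue Bnip3l, which encodes NIX, did not follow Bnip3. It stood at 30, 28.8 and 28.9 CPM in transgenic muscle and at 29.9, 30.3 and 29.3 CPM in wild-type muscle, overlapping ranges with a log2 fold change of -0.03 (SE 0.06, edgeR adjusted p = 0.697). With library totals alone it was called higher (0.37), so its direction depends on the scaling. The ratio of Bnip3 to Bnip3l does not, because both genes are read in the same library. Per kilobase of exon it was 2.86, 3.08 and 2.83 in transgenic muscle, against 5.26, 5.22 and 4.68 in wild-type muscle, with no overlap. Fundc1 encodes an outer membrane receptor of mitophagy, and Fundc2 a related outer membrane protein. Fundc2 stood at 199, 206 and 196 CPM against 271, 257 and 237 CPM and fell under TMM scaling (-0.35, SE 0.06, edgeR adjusted p = 6.02e-04), but was at 0.047 and did not pass with library totals alone. Fundc1, at 24.8 to 27.8 CPM against 26.4 to 31.4 CPM, overlapped between genotypes (-0.16, edgeR adjusted p = 0.12). Fundc1 was called lower without wild-type replicate 3 (-0.23, adjusted p = 0.0412) and higher with library totals alone (0.24).

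**Figure D2:**
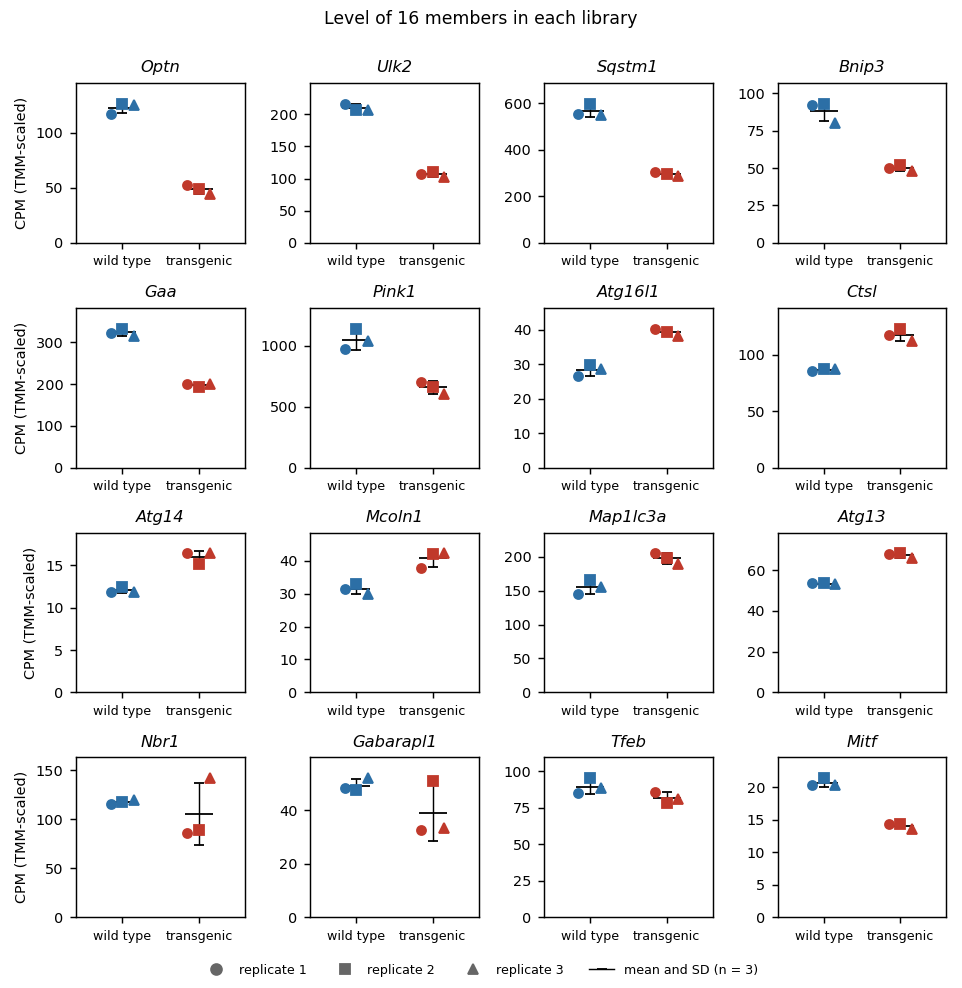
TMM-scaled CPM of 16 members in each library, with symbols for replicates 1 to 3 and black bars for the mean and SD (n = 3 each) and each axis starting at 0. In Optn, Ulk2, Sqstm1, Bnip3, Gaa and Pink1 the transgenic libraries lie below all wild-type libraries, while in Nbr1 and Gabarapl1 a single transgenic library stands apart from the other two.

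Genes of the ULK complex, which starts autophagy, did not move together. Ulk2, which encodes a kinase that starts autophagosome formation (chromosome 11, 61775649 to 61855073), stood at 107, 110 and 102 CPM in transgenic muscle and at 216, 207 and 206 CPM in wild-type muscle. Its level was 1.97-fold lower, with a log2 fold change of -0.98 (SE 0.05, edgeR adjusted p = 1.78e-07), and -0.58 with library totals alone. The paralogue Ulk1 stood at 93.3, 94.9 and 100 CPM against 113, 109 and 114 CPM. Under TMM scaling Ulk1 was called lower (-0.22, SE 0.05, edgeR adjusted p = 0.00596), but with library totals alone it was called higher (0.18, adjusted p = 0.0166), so no direction can be given for it. The TMM call also ended without transgenic replicate 1 (-0.17, adjusted p = 0.05). The ratio of Ulk1 to Ulk2 per kilobase was 0.803, 0.794 and 0.905 in transgenic muscle, against 0.480, 0.485 and 0.511 in wild-type muscle. By this measure Ulk2 was above Ulk1 in every library, by less in the transgenic ones. Atg13, the regulatory subunit of the complex, was higher at 67.8, 68.1 and 65.9 CPM against 53.4, 53.4 and 53.0 CPM (log2 fold change 0.34, SE 0.05, edgeR adjusted p = 2.53e-04, and 0.73 with library totals alone).

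Of the 3 genes of the class III phosphatidylinositol 3-kinase complex, 1 was higher and 1 changed direction with the scaling. With TMM scaling 25.5% of all tested genes were higher. Atg14, the subunit that directs the complex to autophagosomes, was higher at 16.4, 15.1 and 16.4 CPM against 11.9, 12.5 and 11.9 CPM (log2 fold change 0.40, SE 0.08, edgeR adjusted p = 0.00145). Pik3c3, the lipid kinase itself, overlapped between genotypes at 24.9 to 26.5 CPM against 23.4 to 24.9 CPM (0.083, SE 0.07, edgeR adjusted p = 0.312), and was called higher with library totals alone (0.48). Becn1, which encodes Beclin 1, stood at 64.0, 60.7 and 61.8 CPM against 73.5, 75.7 and 74.6 CPM. It was called lower with TMM (-0.26, SE 0.05, edgeR adjusted p = 0.00149) and higher with library totals alone (0.13, adjusted p = 0.0361). Becn1 also shares 3104 exonic bases (43.9% of its exons) with Cntd1 on the other strand, whose row held 4057 counts against 12078.

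Among the membrane proteins that act next, the WIPI paralogues were called in opposite directions with TMM scaling. Wipi1, a phosphoinositide-binding protein of the early membrane, stood at 61.6, 60.1 and 52.3 CPM against 78.3, 91.2 and 86.3 CPM and was called lower with TMM (-0.56, SE 0.08, edgeR adjusted p = 1.28e-04), though not with library totals alone (-0.16, adjusted p = 0.0762). Wipi2, which recruits the conjugation complex through ATG16L1, stood at 53.2, 50.2 and 55.0 CPM against 40.9, 46.6 and 44.9 CPM and was higher (0.26, SE 0.07, edgeR adjusted p = 0.00726). The ratio of Wipi1 to Wipi2 per kilobase was 2.77, 2.86 and 2.27 in transgenic muscle, against 4.58, 4.68 and 4.6 in wild-type muscle, with no overlap. Atg9a, the membrane scramblase of the pathway, overlapped between genotypes at 189 to 195 CPM against 187 to 196 CPM (0.013, edgeR adjusted p = 0.846). It shares 1832 exonic bases with Gm29253 on its own strand, whose row held 20263 counts against 34174, and with library totals alone it was called higher (0.41).

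Of the 7 conjugation genes 1 was higher and 2 lower with TMM scaling, and 5 higher and 0 lower on library totals. The shares of all tested genes were 25.5% and 25.2% with TMM scaling, and 52.3% and 8.73% on library totals. Atg16l1, which places the conjugation complex on the membrane (chromosome 1, 87755870 to 87792428), had the largest rise among the 39 members. It stood at 40.3, 39.4 and 38.2 CPM in transgenic muscle and at 26.6, 29.8 and 28.5 CPM in wild-type muscle, a 1.39-fold higher level with no overlap (log2 fold change 0.47, SE 0.07, edgeR adjusted p = 1.17e-04). Atg7, the E1-like enzyme, was low at 11.8, 10.2 and 10 CPM against 14.5, 12.7 and 13.4 CPM. Its call as lower (-0.34, SE 0.10, edgeR adjusted p = 0.0115) ended without transgenic replicate 2 (adjusted p = 0.0578) or transgenic replicate 3 (adjusted p = 0.0525), and its value was 0.053 with library totals alone. Atg3, the E2-like enzyme, and Atg12, the ubiquitin-like partner of ATG5, overlapped between genotypes at log2 fold changes of -0.04 and -0.07 with TMM scaling, and were called higher with library totals alone (0.36, edgeR adjusted p = 0.00309, and 0.33, adjusted p = 0.00243). Atg5 (17.9 to 19.1 CPM against 15.7 to 16.9 CPM) did not overlap, yet its log2 fold change of 0.17 (SE 0.07, edgeR adjusted p = 0.0661) missed the threshold, and passed with a stricter filter of 1 CPM in 3 libraries (adjusted p = 0.0497). Atg5 was called higher with library totals alone (0.57).

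The ATG4 proteases, which trim ATG8 proteins before conjugation, differed from each other. Atg4d stood at 59.1, 55.7 and 57.0 CPM against 78.6, 81.7 and 80.0 CPM and was lower with TMM (-0.48, SE 0.05, edgeR adjusted p = 2.32e-05), but at -0.088 it did not pass with library totals alone. Atg4d shares 1405 exonic bases with Kri1 on the other strand, whose row held 3666 counts against 12045. Atg4b stood at 26.3, 24.9 and 26.3 CPM against 23.0, 23.7 and 23.3 CPM, with a log2 fold change of 0.15 (edgeR adjusted p = 0.0767), which passed without transgenic replicate 2 (0.20, adjusted p = 0.0454) and with library totals alone (0.54). The ratio of Atg4b to Atg4d per kilobase was 0.390, 0.392 and 0.405 in transgenic muscle, against 0.256, 0.255 and 0.256 in wild-type muscle, with no overlap.

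Of the 12 ratios of related genes, 8 did not overlap between the genotypes. The CPM of 59.6% of all tested genes did not overlap either, and ratios of other gene pairs were not read. The count is therefore not a trait shown to be particular to these pairs. Each of the 8 ratios reached p = 0.1 in a two-sided exact permutation test, the smallest value that 3 libraries against 3 allow, and 0.15 after Benjamini-Hochberg adjustment over the 12. None could pass a threshold of 0.05 in this design. Their differences in mean log2 ratio, transgenic minus wild type, were 0.76 for Ulk1/Ulk2, -0.79 for Bnip3/Bnip3l, -0.82 for Wipi1/Wipi2, 0.63 for Atg4b/Atg4d, 0.55 for Ctsl/Ctsd, 0.32 for Ctsb/Ctsd, -0.20 for Lamp1/Lamp2 and 0.19 for Fundc1/Fundc2. The 4 ratios that overlapped were Map1lc3a/Map1lc3b, Gabarapl1/Gabarap, Gabarapl1/Gabarapl2 and Tfeb/Tfe3.

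**Figure D3:**
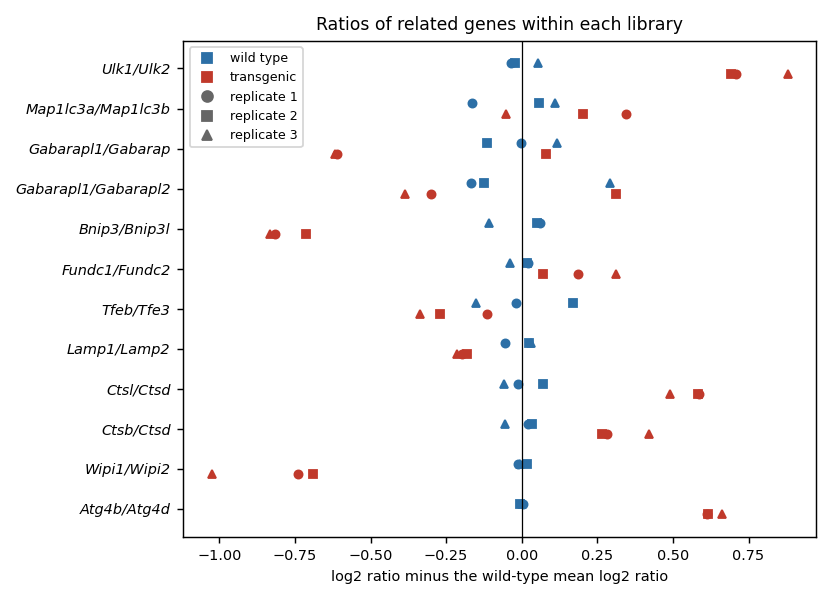
Log2 ratio of 12 pairs of related genes in each library, per kilobase of exon, with the wild-type mean of each pair set to 0, where wild-type libraries are blue and transgenic libraries red, with symbols for replicates 1 to 3. Red and blue points separate in 8 pairs, with differences in mean from -0.82 (Wipi1/Wipi2) to 0.76 (Ulk1/Ulk2).

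Of the 5 ATG8 genes 1 was higher and 0 lower with TMM scaling, and 3 higher and 0 lower on library totals. The shares of all tested genes were 25.5% and 25.2% with TMM scaling, and 52.3% and 8.73% on library totals. Map1lc3a, an LC3 gene, stood at 205, 198 and 190 CPM in transgenic muscle and at 145, 166 and 156 CPM in wild-type muscle. It was higher with no overlap (log2 fold change 0.34, SE 0.06, edgeR adjusted p = 7.92e-04), and at 0.74 with library totals alone. Map1lc3b stood at 86.8, 92.1 and 106 CPM against 87.4, 85.7 and 77.7 CPM, with overlap and a log2 fold change of 0.18 (edgeR adjusted p = 0.0741), which passed when transgenic replicate 1 was left out (0.27, adjusted p = 0.0202) or when no filter on low counts was used (adjusted p = 0.00564). With library totals alone Map1lc3b was called higher (0.58), and it shares 58 exonic bases with Zcchc14 on the other strand, whose row held 8933 counts against 16086. Gabarap overlapped at 95.4 to 101 CPM against 94.9 to 102 CPM (0.015, edgeR adjusted p = 0.842) and was called higher with library totals alone (0.41). Gabarapl1 stood at 32.7, 50.8 and 33.2 CPM against 48.1, 47.4 and 51.9 CPM. Transgenic replicate 2 lay among the wild-type libraries and the other transgenic libraries lay well below, so the value was -0.34 (SE 0.18, edgeR adjusted p = 0.175), and -0.55 (adjusted p = 1.80e-04) without transgenic replicate 2. On all libraries Gabarapl1 was called lower by DESeq2 (-0.33, adjusted p = 0.0291) and by edgeR with no filter on low counts (-0.30, adjusted p = 0.00907), while with library totals alone it was at 0.058 and not called. It shares 570 exonic bases with 1700101I11Rik on the other strand, whose row held 1491 counts against 7683. Gabarapl2 was the least abundant at 10.6 to 11.4 CPM against 11.1 to 14.2 CPM (-0.25, edgeR adjusted p = 0.0601), and passed without wild-type replicate 3 (-0.35, adjusted p = 0.0127).

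Per kilobase of exon the order within the family was the same in every library, namely Map1lc3a, Gabarap, Gabarapl1, Map1lc3b and Gabarapl2. Map1lc3a held 66.9%, 64.1% and 64.1% of the family's counts per kilobase in transgenic muscle, against 56.8%, 59.4% and 58.9% in wild-type muscle. Gabarap held 19.8% to 21.8% against 22.9% to 23.9%, so its share was lower in all transgenic libraries although its CPM did not pass. The exon length joins all annotated transcripts of a gene, which lowers the per-kilobase level of genes with long alternative ends, such as Map1lc3b (7517 bases against 1181 for Map1lc3a). These shares describe the genes and were not tested.

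**Figure D4:**
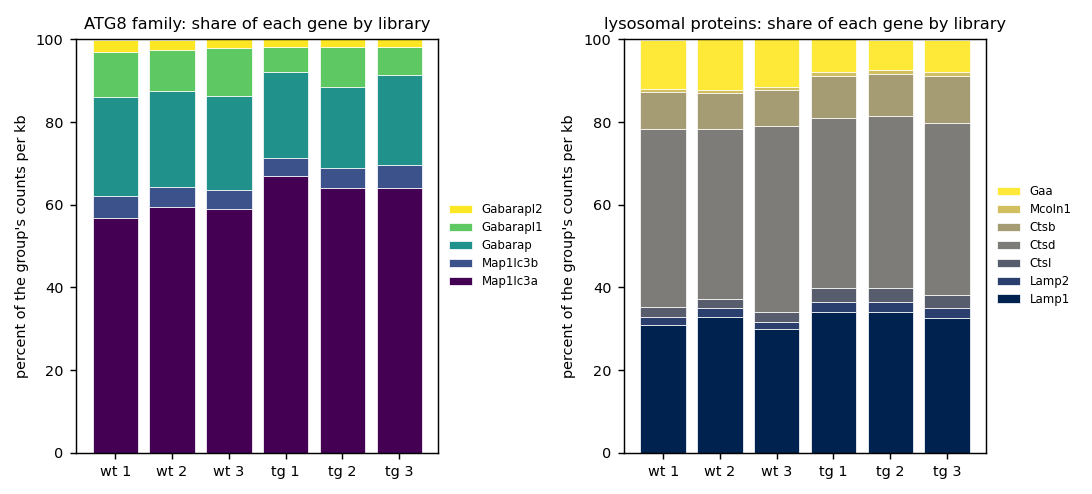
Share of each gene in the summed counts per kilobase of the ATG8 family (left) and of the 7 lysosomal members (right), in percent, for wild-type (wt) and transgenic (tg) replicates 1 to 3. Map1lc3a takes 64.1% to 66.9% in transgenic muscle, against 56.8% to 59.4% in wild-type muscle, and Gaa takes 7.27% to 7.88% and 11.6% to 12.3%.

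Of the 7 lysosomal members 4 were higher and 1 lower with TMM scaling, and 6 higher and 1 lower on library totals. Among all tested genes 25.5% were higher and 25.2% lower with TMM scaling, and 52.3% and 8.73% on library totals. Ctsl, which encodes the protease cathepsin L (chromosome 13, 64359337 to 64370890), stood at 117, 123 and 112 CPM in transgenic muscle and at 85.7, 87.0 and 87.7 CPM in wild-type muscle. It was 1.35-fold higher with no overlap (log2 fold change 0.44, SE 0.06, edgeR adjusted p = 6.68e-05), and at 0.83 with library totals alone. Mcoln1, the calcium channel of the lysosomal membrane (chromosome 8, 3500457 to 3515232), stood at 37.8, 42.1 and 42.2 CPM against 31.5, 32.9 and 29.8 CPM. It was also higher (0.37, SE 0.07, edgeR adjusted p = 9.07e-04). Lamp2, a membrane glycoprotein whose loss causes Danon disease of muscle, stood at 124, 128 and 122 CPM against 108, 109 and 100 CPM and was higher (0.24, SE 0.06, edgeR adjusted p = 0.00441). Ctsb, cathepsin B, stood at 327, 341 and 367 CPM against 303, 293 and 303 CPM (0.21, SE 0.06, edgeR adjusted p = 0.0144), a call that ended without transgenic replicate 3 (0.17, adjusted p = 0.0515). Ctsb shares 774 exonic bases with Fdft1 on the other strand, whose row held 6297 counts against 57885.

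Gaa moved against the other lysosomal members that passed. The acid alpha-glucosidase it encodes breaks down glycogen inside lysosomes (chromosome 11, 119267887 to 119285454). It stood at 201, 193 and 201 CPM in transgenic muscle and at 323, 333 and 316 CPM in wild-type muscle, a 1.64-fold lower level (log2 fold change -0.71, SE 0.05, edgeR adjusted p = 1.34e-06), and -0.31 with library totals alone. Its share of the 7 lysosomal genes' counts per kilobase was 7.88%, 7.27% and 7.81% against 12%, 12.3% and 11.6%. Lamp1, the other major membrane glycoprotein, overlapped at 471 to 507 CPM against 457 to 499 CPM (0.04, edgeR adjusted p = 0.62). It shares 249 exonic bases with Grtp1 on the other strand, whose row held 11257 counts against 85900. Ctsd, cathepsin D, stood at 516 to 544 CPM against 548 to 603 CPM and did not overlap, yet missed the threshold (-0.12, edgeR adjusted p = 0.13). Ctsd shares 808 exonic bases with Gm49369 on its own strand, whose row held 49627 counts against 97391. With library totals alone Lamp1 (0.44) and Ctsd (0.28) were called higher.

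Lysosomal transcripts are also abundant in macrophages, so macrophage markers were read beside these values. Of 14 tested markers 12 passed in neither direction with TMM scaling, where 50.7% of all tested genes were called. No marker of the list was at 0 in any library. The summed level of the 15 listed markers was 120, 132 and 122 CPM in transgenic muscle, against 136, 84.3 and 138 CPM in wild-type muscle, overlapping ranges with wild-type replicate 2 lowest. Cd68, which encodes a lysosomal membrane protein of macrophages, stood at 4.31, 5.93 and 5.87 CPM against 2.30, 1.58 and 2.32 CPM and was higher (log2 fold change 1.399, SE 0.19, edgeR adjusted p = 1.27e-04). Lgals3, which encodes the lectin galectin-3, was also higher (1.86, SE 0.30). Among markers of other cells, 10 of 10 endothelial genes and 5 of 10 fibroblast genes were called lower with TMM scaling, against 25.2% of all tested genes. On library totals 1 endothelial gene was lower and 0 higher, and 0 fibroblast genes were lower and 3 higher. Of all tested genes, 25.5% were higher with TMM scaling, and 52.3% were higher and 8.73% lower on library totals. The summed endothelial level was 466 to 500 CPM in transgenic muscle, against 602 to 639 CPM in wild-type muscle, and the summed fibroblast level was 2070 to 2430 and 2480 to 2900 CPM. Of 7 satellite cell genes 3 were higher and 1 lower with TMM scaling (75.3 to 96.7 CPM against 73.6 to 77.1 CPM summed), and 6 higher and 0 lower on library totals. Of 8 adipocyte genes 1 was lower with TMM scaling and 0 were called with library totals alone. Their sum (1630 to 1970 CPM against 1980 to 2210 CPM) is mostly Car3, at 1460 to 1830 CPM against 1800 to 2030 CPM. Adipoq, which encodes adiponectin, stood at 7.33, 1.8 and 2.81 CPM against 23.2, 3.05 and 2.23 CPM, so wild-type replicate 1 stood apart. Leaving out that library changed no member's call. Car3 and Adipoq were named after their values were seen. No marker in any of these lists was at 0. The part of these cells, and of the lower fibre markers, in the members' values was not tested.

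Of the 3 transcription factor genes of the TFEB family 1 was called with TMM scaling, against 50.7% of all tested genes. Mitf stood at 14.4, 14.3 and 13.6 CPM in transgenic muscle and at 20.3, 21.4 and 20.3 CPM in wild-type muscle and was called lower with TMM (-0.55, SE 0.07, edgeR adjusted p = 7.90e-05), but with library totals alone it was at -0.16 (adjusted p = 0.0719). Tfeb itself stood at 85.7, 78.3 and 81.1 CPM against 84.9, 95.1 and 88.1 CPM, overlapping, with a log2 fold change of -0.13 (SE 0.06, edgeR adjusted p = 0.102). Tfe3 overlapped at 14.3 to 15.8 CPM against 13.0 to 15.1 CPM (0.11, SE 0.09, edgeR adjusted p = 0.3). With library totals alone Tfeb (0.27) and Tfe3 (0.51) were called higher. Per kilobase Tfeb made up 78.1% to 79.6% of the family's counts in transgenic muscle, against 76.0% to 77.6% in wild-type muscle, with Mitf at 12% to 13.0% and 15.9% to 16.6% and Tfe3 at 8.13% to 9.36% and 6.5% to 7.95%. These are transcript levels, and the activity of TFEB is known to be set largely by phosphorylation and nuclear entry, which RNA counts do not measure.

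TFEB family proteins are known to bind the E-box CACGTG, most strongly within the longer element TCACGTGA. Promoter windows from RefSeq (GRCm38.p6, 250 bases before to 50 after a gene's start) were found by symbol for 32 of the 39 members. CACGTG, which reads the same on both strands, was present in 10 of these 32 members (31.2%), against 11.4% of 11241 tested genes with a window and 7.15% of all 32851 windows. TCACGTGA, which contains CACGTG and also reads the same on both strands, was present in 3 members (Atg3, Ctsd and Mcoln1, 9.38%), against 2.08% of those tested genes and 0.974% of all windows. The members were chosen as genes of a pathway that these factors are known to activate. Their higher share is therefore no finding about the transgenic muscle. A match is a string of letters and does not show binding, and a window without one says nothing of the factor. The 10 members that hold CACGTG did not move together, with Ctsl, Mcoln1 and Atg14 higher, Gaa, Bnip3 and Atg7 called lower under TMM scaling, and Lamp1, Ctsd, Atg3 and Atg5 past the threshold in neither direction.

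The sites of 6 of these members are printed below. The same hexamer stands upstream of the RefSeq start of genes that were higher, lower or not called. The Ctsl site, the Mcoln1 site at 45 bases and the Ctsd site at 98 bases lie inside the GENCODE span of their gene. Capitals mark each CACGTG, and each line reads 5′ to 3′ on the gene's strand, with distances to the RefSeq start, which can differ from the GENCODE start given above.
Mcoln1, higher, site 71 bases before the start, chr8:3500436-3500465, plus strand: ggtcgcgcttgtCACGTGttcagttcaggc
Mcoln1, higher, site 45 bases before the start, chr8:3500462-3500491, plus strand: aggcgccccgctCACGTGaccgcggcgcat
Ctsl, higher, site 236 bases before the start, chr13:64370739-64370768, minus strand: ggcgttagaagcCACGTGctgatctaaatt
Lamp1, not called, 4 sites 61, 45, 28 and 15 bases before the start, chr8:13159085-13159160, plus strand: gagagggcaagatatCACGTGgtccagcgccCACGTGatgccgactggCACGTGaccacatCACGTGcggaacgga
Ctsd, not called, site 245 bases before the start, chr7:142388048-142388077, minus strand: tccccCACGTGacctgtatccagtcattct
Ctsd, not called, site 98 bases before the start, chr7:142387908-142387937, minus strand: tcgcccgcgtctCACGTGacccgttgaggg
Gaa, lower, site 140 bases before the start, chr11:119267808-119267843, plus strand: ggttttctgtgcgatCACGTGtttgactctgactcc
Bnip3, lower, site 108 bases before the start, chr7:138909594-138909629, minus strand: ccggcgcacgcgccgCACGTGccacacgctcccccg

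Lamp1 carried the most copies, 4 within 61 bases of its start, and its level overlapped between the genotypes. Mcoln1, Ctsd and Atg3 carried 2 copies each, 1 of them in the longer element. Mcoln1 was higher, while Ctsd and Atg3 were not called with TMM scaling. Gaa and Bnip3, with 1 copy each, were lower under both scalings. Among the other members with 1 copy, Ctsl and Atg14 were higher. Atg7 was lower and Atg5 not called with TMM scaling.

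Other genes of the pathway were read from 7 further lists that hold 151 tested genes, of which 41 were higher and 49 lower with TMM scaling (59.6% called, against 50.7% of all tested genes). On library totals the counts were 95 higher and 11 lower. The median log2 fold change of the listed genes with TMM scaling was -0.03. Among all tested genes 25.5% were higher and 25.2% lower with TMM scaling, and 52.3% and 8.73% on library totals. The counts of each list below stand beside these shares. The lists were chosen with earlier results of these data known, so a share that differs from the background is no independent evidence. The vacuolar proton pump (V-ATPase), which acidifies lysosomes, had 6 of 17 subunit genes higher and 2 lower, with a median of 0.13. Atp6v1a, the catalytic subunit, stood at 53.9, 56.4 and 61.2 CPM in transgenic muscle and at 26.2, 27.0 and 25.8 CPM in wild-type muscle, a log2 fold change of 1.12 (SE 0.07, edgeR adjusted p = 2.51e-07). Every transgenic library lay above every wild-type one. The other subunits of the cytosolic V1 sector with the smallest p were Atp6v1f (0.85, SE 0.06), Atp6v1d (0.75, SE 0.05) and Atp6v1g1 (0.64, SE 0.06). Atp6v1b2, the partner of Atp6v1a in the catalytic ring, fell with TMM (-0.51, SE 0.06) and was at -0.11 and not called with library totals alone, where 15 subunit genes were higher and 0 lower.

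Of 16 genes for the fusion of autophagosomes with lysosomes, 9 were lower (56.2%) and 2 higher (12.5%) under TMM scaling, with a median of -0.36. Among all tested genes 25.2% were lower and 25.5% higher. Because the list was chosen with earlier results of these data known, the gap was not read as a trait of fusion genes. Plekhm1 (-0.72, SE 0.07) and Rab7 (-0.58, SE 0.06), an adaptor and the GTPase that recruit the tethering machinery, were lower, as was Stx17 (-0.61, SE 0.08), the syntaxin of the autophagosome. On library totals 3 of the list were lower and 6 higher, with a median of 0.032, and Plekhm1, Rab7 and Stx17 were the 3 still lower. Tecpr1 (0.34, SE 0.06) and Vps16 (0.35, SE 0.08) were higher.

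Of 20 autophagosome formation genes other than the members, 5 were higher and 6 lower with TMM scaling, and 13 higher and 1 lower on library totals. Atg16l2, the paralogue of Atg16l1, stood at 17.5, 21 and 16.9 CPM against 6.24, 7.49 and 6.91 CPM and had the largest rise in the list (1.41, SE 0.11, edgeR adjusted p = 1.97e-06). The lipid transfer genes Atg2a (0.48, SE 0.05) and Atg2b (0.44, SE 0.06) and the Beclin 1 regulator Ambra1 (0.53, SE 0.06) were also higher. Bcl2, an inhibitor of Beclin 1, stood at 2.63, 3.63 and 3.99 CPM against 16.9, 9.01 and 20.3 CPM and was lower (-2.15, SE 0.36, edgeR adjusted p = 0.0042). The wild-type values were spread widely, with wild-type replicate 2 lowest, yet lay above all transgenic values. Nrbf2, an activator of the lipid kinase complex, was lower with TMM (-0.62, SE 0.13) but not called with library totals alone (-0.23).

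**Figure D5:**
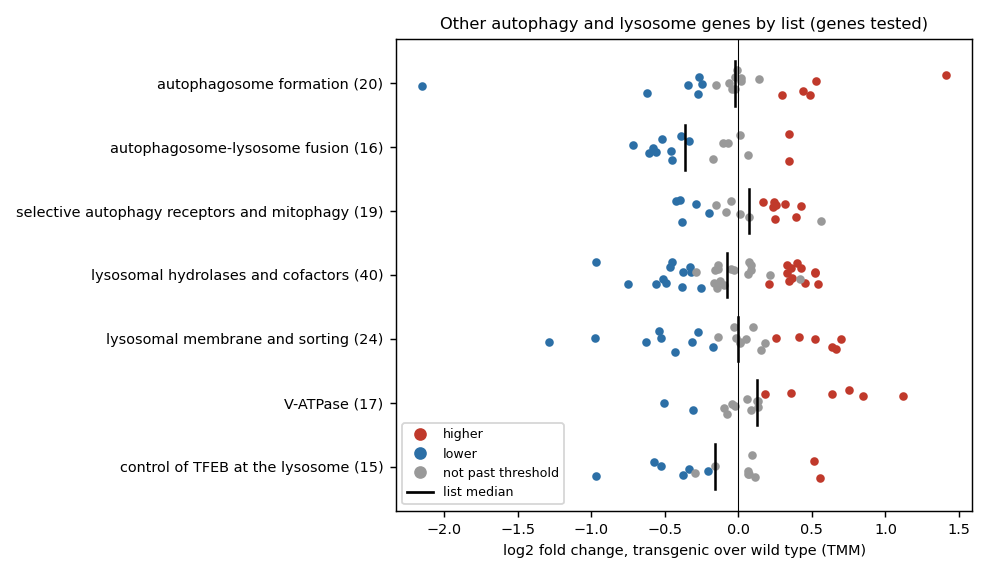
Log2 fold change (TMM) of the genes in 7 further lists of the pathway, with the number tested in brackets, 1 point per gene (red higher, blue lower, grey not past the threshold) and a black bar at the list median. The V-ATPase has the highest median (0.13) and autophagosome-lysosome fusion the lowest (-0.36).

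Among 19 further genes of selective autophagy and mitophagy 8 were higher and 5 lower, with a median of 0.07. The receptor genes Calcoco1 (0.39, SE 0.07), Tollip (0.32, SE 0.06) and Fkbp8 (0.25, SE 0.06) and the deubiquitinase gene Usp8 (0.43, SE 0.06) were higher. Tax1bp1, a receptor that works beside p62 and NBR1, was called lower with TMM (-0.20, SE 0.05) and higher with library totals alone (0.19). The mitochondrial genes Nipsnap2 (-0.40, SE 0.06) and Mul1 (-0.42, SE 0.06) and the deubiquitinase gene Usp15 (-0.39, SE 0.05) were lower with TMM, whereas on library totals 15 of the 19 were higher and 0 lower.

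Of 40 lysosomal hydrolase and cofactor genes 12 were higher and 12 lower with TMM scaling, and 22 higher and 3 lower on library totals. Smpd1 (0.40, SE 0.05), Acp2 (0.45, SE 0.06), Neu1 (0.43, SE 0.07) and Arsb (0.52, SE 0.09) were higher. Ctsc (-0.97, SE 0.08), Fuca1 (-0.75, SE 0.07) and Ctsa (-0.56, SE 0.06) were lower under both scalings, and Ids (-0.47, SE 0.07) with TMM alone. In the list of lysosomal membrane and sorting genes 6 of 24 were higher and 9 lower with TMM scaling, and 16 higher and 2 lower on library totals. Gnptab, which encodes the enzyme that makes the mannose 6-phosphate tag of lysosomal hydrolases, stood at 11.2, 13.7 and 11.4 CPM against 31.7, 27.9 and 29.0 CPM (-1.29, SE 0.09, edgeR adjusted p = 1.07e-06). M6pr, a receptor for that tag, moved the other way, at 33.8, 33.7 and 36.3 CPM against 22.2, 21.5 and 22.1 CPM (0.66, SE 0.06, edgeR adjusted p = 8.76e-06). The cholesterol exporter gene Npc1 (-0.97, SE 0.11) was lower under both scalings, and Lamtor1 (0.52, SE 0.06), which anchors the Rag GTPases, was higher.

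Genes that control TFEB at the lysosome had 2 of 15 tested members higher and 6 lower with TMM scaling, and 8 higher and 2 lower on library totals. Tfec was too low to test. Rragd, the Rag GTPase gene known as a target of the TFEB family, stood at 204, 207 and 198 CPM against 413, 393 and 388 CPM and was lower under both scalings (-0.97, SE 0.06, edgeR adjusted p = 2.10e-07). Rraga (0.51, SE 0.06) was higher. Flcn, the folliculin gene whose product acts on RagC and RagD, fell with TMM (-0.53, SE 0.07) and was at -0.13 and not called with library totals alone. Ppp3cb (-0.58, SE 0.07), a catalytic subunit of the phosphatase calcineurin, which dephosphorylates TFEB, was lower under both scalings.

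Of the 39 members, 6 appeared among the 3614 genes of the authors' deposited table, where the smallest change listed was 0.585 in absolute log2 units. They were the same 6 that fell at least 1.5-fold here. That table compares the same groups of libraries and its smallest listed change is also 1.5-fold, so the match is not independent support. The authors' deposited table gave log2 fold changes of -1.28 for Optn, -0.966 for Ulk2, -0.941 for Sqstm1, -0.817 for Bnip3, -0.734 for Gaa and -0.699 for Pink1.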

How the data were processed

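RNA was taken from frozen, ground gastrocnemius muscle with Trizol and sequenced from Illumina libraries, per the labels' protocols. Reads were aligned with STAR 2.5.0a to GRCm38.p6 and counted with featureCounts 2.0.0, per the submitters' processing notes. The authors deposited raw fragment counts per gene, unnormalized. Per the file headers, strand was ignored and a fragment over several genes counted for each. The authors' deposited comparison table, whose DESeq2 version is not given in the sources used here, holds a log2 fold change and p-value per gene and was read for the members only.

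Symbols, positions and exon lengths came from GENCODE M21 (GRCm38), which held 51718 of the 51911 gene IDs. Rows were filtered with filterByExpr, scaled with TMM factors (0.851 to 1.15) and tested with edgeR 4.0.16 in R 4.3.3 (quasi-likelihood F test, robust, genotype as sole term, Benjamini-Hochberg over 16593 genes, threshold 0.05). An SE is the absolute log2 fold change over the square root of F. CPM uses TMM-scaled totals, and a count of 3 equals 0.0804 to 0.134 CPM. Alternatives were DESeq2 1.42.0, limma-voom (limma 3.58.1), other scalings and filters, a block for replicate number, and leaving out single libraries. The fit was tested on simulated data in which few genes changed and every gene had the same dispersion (spread between libraries). That test does not bear on the choice of scaling. No pair within a genotype was a duplicate, as chi-square over its degrees of freedom ran from 10.5 to 26.0 where 1 is sampling noise. The members and lists were chosen with earlier results of these data known. All members may be named. From each further list the text names up to 4 genes per direction, by smallest p, and from marker lists up to 3.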

Additional observations from a re-analysis of the deposited data

How the results depend on the processing

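Of 15 alternative settings, library totals alone moved the counts most, to 25 members higher and 6 lower, and to 8676 higher and 1448 lower among all tested genes. That setting turned the sign of 13 members: Ulk1 (0.177), Becn1 (0.133), Atg3 (0.362), Atg7 (0.053), Atg12 (0.325), Gabarapl1 (0.058), Gabarapl2 (0.145), Nbr1 (0.238), Bnip3l (0.366), Fundc1 (0.238), Fundc2 (0.047), Tfeb (0.266) and Ctsd (0.275). It lifts the median gene by 0.396, and these members lay within that distance below 0. With no filter on low counts Atg3 (0.004) and Bnip3l (0.008) turned sign, and the cause was not tested. Leaving out 1 library at a time turned the sign of Atg9a (range -0.007 to 0.049), Atg3 (-0.084 to 0.066), Gabarap (-0.011 to 0.062), Bnip3l (-0.05 to 0.005) and the Gabarapl1/Gabarapl2 log2 ratio difference (-0.343 to 0.022), none of which passed with all libraries. Upper-quartile factors, DESeq2 size factors, limma-voom and a fit without robust estimation changed no member's call or sign.

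Libraries with the same replicate number showed no shared deviation (correlations of deviations 0.101, -0.088 and -0.21 over 16593 genes). Transgenic replicates 2 and 3 correlated best with wild-type replicates 3 and 2 (0.143 and 0.246). Deviations from a mean of 3 libraries depend on each other, so these values cannot exclude that the numbers pair the libraries. With the replicate block 9 members were higher and 13 lower, and no member's call changed. With 3 libraries a group, the smallest absolute log2 fold change that passed among the members was 0.206 (Ctsb).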
